A study of Mus musculus with 4 samples.

Results

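The genes described here are 9 tied to lipid uptake and handling at the endothelium: *Cd36*, *Scarb1*, *Lipg*, *Lpl*, *Gpihbp1*, *Lrp1*, *Abca1*, *Abcg1*, and *Pparg*. They were chosen by name for their known roles, and they are 9 of 21887 protein-coding genes listed for GRCm38 (mm10). H3K27ac, an acetyl mark on histone H3 carried by active regulatory DNA, was profiled by ChIP-Seq in 2 libraries from mouse liver sinusoidal endothelial cells (LSECs), named replicates 2 and 3 after their library names. LSECs were isolated by collagenase perfusion and beads against the endothelial surface protein CD146, then cultured briefly on collagen I, according to the study's methods, and cross-linked with formaldehyde. Both libraries belong to 1 condition, an antibody against H3K27ac in LSECs, and the labels give no genotype, treatment, age, or sex of the mice and do not say whether the libraries came from separate animals. The methods describe isolation from *Col4a1* fl/wt mice, with or without *Cdh5* CreERT2, and from *dCas9-KRAB* *Cdh5* CreERT2 mice, without tying a line to these libraries. An input library carries the number of each replicate and was not analysed here. With 1 condition there were no groups to test, so each result is given as a value in each library.

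LSECs line the liver sinusoid and take up lipoproteins, modified lipoproteins, and fatty acids from the blood. Lipoprotein particles reach such cells through surface receptors, lipases bound to the endothelial surface release fatty acids from them, and ATP-binding cassette transporters pass cholesterol back to HDL. PPARγ, a nuclear receptor that binds fatty acid derivatives, activates *Cd36*, and the LXR nuclear receptors, which bind oxidized cholesterol, activate *Abca1* and *Abcg1*.

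A peak is a stretch called as enriched in 1 library, and its fold enrichment is the ratio of its signal to background that the peak caller gave. A shared region joins peaks of both libraries that overlap by at least 1 bp, and its fold enrichment in a library is that of the highest peak of that library in it. Each gene was searched over its body plus 10 kb on each side. A peak or region within 1 kb of either end of the gene was called a gene-end peak or region, and any other was called distal. The gene table gives no strand, so both ends were used for every gene.

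Replicate 2 had 26975 peaks and replicate 3 had 64498, which was 2.39 times as many. They formed 24199 shared regions, and 99.2% of replicate 2 peaks but 37.7% of replicate 3 peaks were shared. The number of reads behind either list is unknown. Of 12 LSEC markers, 9 had a shared gene-end region and all 12 had a shared distal region, including *Stab2*, the hyaluronan scavenger receptor, and *Mrc1*, the mannose receptor. No hepatocyte marker of 10 and no stellate cell marker of 8 had a shared gene-end region, although replicate 3 alone had gene-end peaks at 2 of the former and 1 of the latter. Of 8 Kupffer cell and macrophage markers only *Cd68* had one, and that region also lay at an end of *Eif4a1*, whereas *Clec4f*, *Adgre1*, *Cd5l*, *Vsig4*, *Marco*, and *Timd4* had no peak in either library. The adipocyte, lymphocyte, and absent-tissue lists had 1 gene each with a shared gene-end region, of 6, 6, and 8 genes. The region of the lymphocyte gene, *Cd79a*, also lay at an end of *Arhgef1*. Shared distal regions were found at 3 of 10 hepatocyte markers, 1 of 8 stellate cell markers, and 2 of 8 Kupffer cell and macrophage markers. They were also found at 3 of 6 adipocyte and 3 of 6 lymphocyte markers and 2 of 8 genes of absent tissues. Over all protein-coding genes, 44.1% had a shared gene-end region and 39.3% a shared distal region. The adipocyte and lymphocyte lists were thus above the distal share, and the hepatocyte list was near it. The marker lists were chosen with earlier results of these data known.

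RefSeq promoter sequences of GRCm38 were at hand for 4 of the 9 genes, *Abca1*, *Cd36*, *Lrp1*, and *Pparg*, with 3 entries for *Pparg*. Promoters of *Scarb1*, *Lipg*, *Lpl*, *Gpihbp1*, and *Abcg1* were not analysed here. The 5 promoters below are shown because the libraries treated them differently: both covered those of *Abca1* and *Cd36* in full, and replicate 3 alone reached the others. Each line gives the 250 bases before the start site, 5′ to 3′, and capitals mark TATAAA (the TATA box), GGGCGG (the GC box), CCGGAA (the core of ETS factor sites), and AGGTCA (the half-site of nuclear receptors), searched on both strands.
Abca1, chr4:53159896-53160145, minus strand: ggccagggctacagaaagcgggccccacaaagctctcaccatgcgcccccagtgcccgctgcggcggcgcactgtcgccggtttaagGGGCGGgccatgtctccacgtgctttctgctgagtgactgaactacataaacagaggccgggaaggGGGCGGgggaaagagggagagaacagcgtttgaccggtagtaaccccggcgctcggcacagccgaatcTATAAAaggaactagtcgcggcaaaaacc
Lrp1, chr10:127621149-127621398, minus strand: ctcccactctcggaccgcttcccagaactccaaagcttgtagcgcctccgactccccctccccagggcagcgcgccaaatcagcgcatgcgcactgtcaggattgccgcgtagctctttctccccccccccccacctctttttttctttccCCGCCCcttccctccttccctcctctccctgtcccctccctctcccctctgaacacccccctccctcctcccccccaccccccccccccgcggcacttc
Cd36, chr5:17835897-17836146, minus strand: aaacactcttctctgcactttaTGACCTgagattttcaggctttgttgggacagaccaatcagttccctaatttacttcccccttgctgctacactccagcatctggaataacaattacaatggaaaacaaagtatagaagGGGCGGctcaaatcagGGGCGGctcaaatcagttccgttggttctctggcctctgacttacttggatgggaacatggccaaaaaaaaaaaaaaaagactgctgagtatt
Pparg outer, chr6:115360894-115361143, plus strand: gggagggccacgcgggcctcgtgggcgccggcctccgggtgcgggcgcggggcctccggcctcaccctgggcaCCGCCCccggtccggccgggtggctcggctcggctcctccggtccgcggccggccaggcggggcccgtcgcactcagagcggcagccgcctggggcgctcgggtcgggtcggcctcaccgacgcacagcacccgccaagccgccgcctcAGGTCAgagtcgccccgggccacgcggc
Pparg inner, chr6:115421816-115422065, plus strand: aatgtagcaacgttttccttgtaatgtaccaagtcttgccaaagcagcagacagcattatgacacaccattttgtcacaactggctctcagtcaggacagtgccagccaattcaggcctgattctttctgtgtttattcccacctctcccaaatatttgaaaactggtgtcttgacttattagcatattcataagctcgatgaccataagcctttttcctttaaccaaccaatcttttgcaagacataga

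Over all 32851 promoters of the same length in the table, 12.4% held TATAAA, 32.7% GGGCGG, 12% CCGGAA, and 14% AGGTCA, and the median GC content was 52.4% with 6 CpG dinucleotides. CCGGAA was in none of the 6 member promoters, and no base belonged to more than 1 motif. These matches describe letters in these windows and say nothing about which factors bind there.

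The *Abca1* promoter, which drives the exporter that passes cholesterol to apolipoprotein A-I, was GC rich at 61.6% and held 20 CpG dinucleotides. It carried a TATA box whose first letter lay 29 bases before the start site and GC boxes at 163 and 97 bases. All 250 bases lay under a peak in both libraries, and the fold enrichment reached 21.7 in replicate 2 and 65.3 in replicate 3. The summits were 79 and 169 bases upstream of the start site. This was the strongest promoter of the 4 genes with an entry in each library.

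The *Cd36* promoter, of the fatty acid translocase and scavenger receptor CD36, was AT rich by comparison, with a GC content of 43.2% and 3 CpG dinucleotides. It held GC boxes at 109 and 93 bases and a nuclear receptor half-site, on the reverse strand, at 228 bases. The entry lies 53.1 kb inside the gene from its outer 5′ end, so the peaks over it were counted as distal by the gene-end rule. Both libraries covered all 250 bases, at fold enrichments of 10.8 in replicate 2 and 14.7 in replicate 3, with summits 661 and 324 bases upstream. The start site thus lay under a peak of both libraries although no gene-end peak was called.

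The *Lrp1* promoter, of the large endocytic receptor that takes up lipoprotein remnants, had a GC content of 67.2% and 1 GC box on the reverse strand at 99 bases. No base of it lay under a replicate 2 peak, the nearest of which was 668 bp from the start site. In replicate 3 the peak began 157 bp from the start site and covered 94 of the 250 bases. The summits lay 699 and 600 bases upstream, so both summits sat beyond the printed window.

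The outer *Pparg* promoter had the highest GC content of the 6, 82.4%, with 38 CpG dinucleotides, a GC box, and a nuclear receptor half-site at 28 bases. Replicate 3 covered all 250 bases at a fold enrichment of 9.32, and its summit lay 23 bases past the start site. Replicate 2 had no peak nearer than 21532 bp. The inner *Pparg* promoter, 61.2 kb into the gene, held none of the 4 motifs and had a GC content of 40.8%. Replicate 3 covered 109 of its bases with a weak peak (fold enrichment, 4.56), and replicate 2 had none within 15859 bp. A shared region thus lay within 1 kb of a RefSeq start site in 3 of the 4 genes with an entry, the exception being *Pparg*.

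Acetylation at the gene ends was present at 5 of the 9 genes in both libraries: *Scarb1*, *Gpihbp1*, *Lrp1*, *Abca1*, and *Abcg1*. The share, 55.6%, was near the 44.1% of all protein-coding genes that had a shared gene-end region. Taken by itself, replicate 3 had a gene-end peak at 7 of the 9, those 5 plus *Lipg* and *Pparg*, against 53.9% of all genes. *Cd36* and *Lpl* had no gene-end peak in either library. Each of the 5 genes had 1 such region, 3 of the 5 regions covered the gene end itself, and none lay within 1 kb of an end of another protein-coding gene. When each overlapping pair had to cover at least 50% of both peaks, no gene-end region was left at any of the 9 genes. The share of all protein-coding genes left under that rule is not given here, so this loss cannot be called particular to the 9.

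Distal acetylation was the more frequent kind. A shared distal region was found at 7 of the 9 genes, all but *Lipg* and *Lpl*, against 39.3% of all protein-coding genes. The 22 shared distal regions were 17 in gene bodies and 5 in the flanks, and 1 of them, near *Abca1*, lay at an end of *Nipsnap3b*. Taken by itself, replicate 3 had a distal peak, shared or not, at each of the 9 genes, against 60.6% of all genes. The 9 genes were long, with a median body of 64 kb against 17.2 kb over all genes, so distal counts are also set against genes of like length. Among genes within 1.5 times the length of each, the share with a shared distal region was 24% for the short *Gpihbp1* and 41.8% to 57.3% for the other 8.

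**Figure D1:**
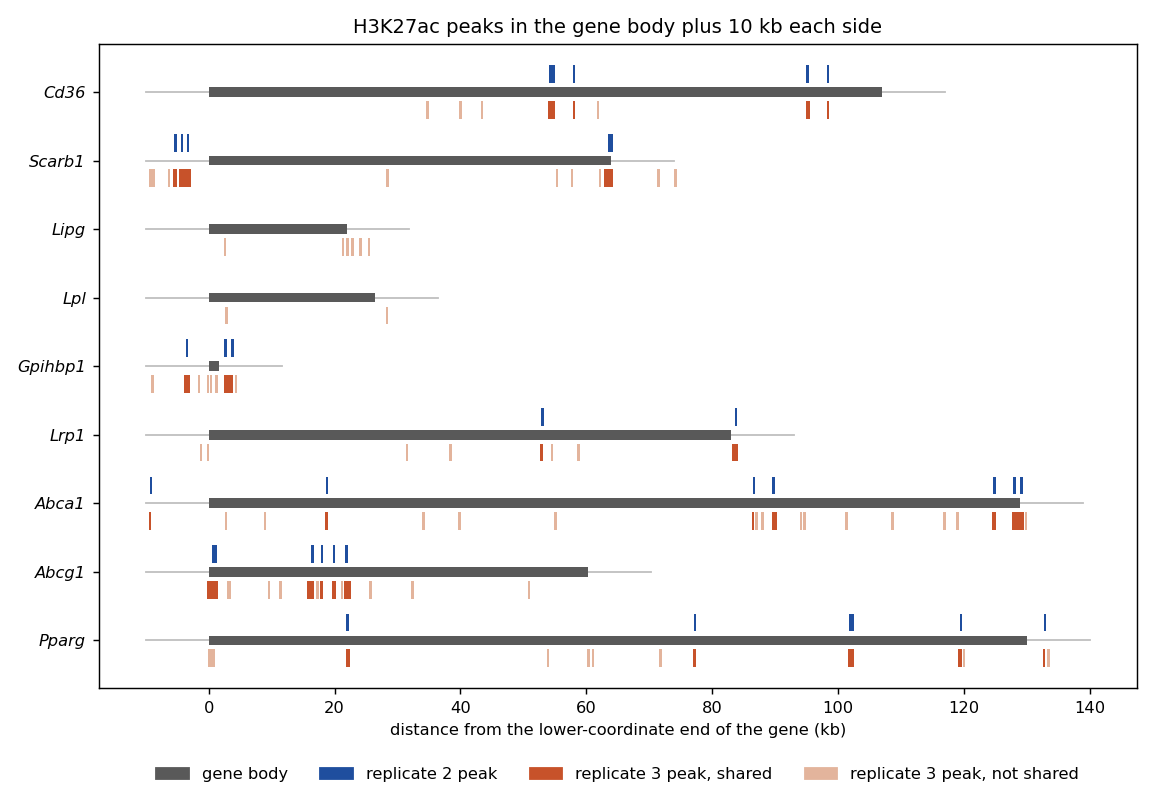
H3K27ac peaks at the 9 genes, with distance from the lower-coordinate end of each gene in kb on the horizontal axis, gene bodies as dark bars, and the 10-kb flanks as thin lines. Replicate 2 peaks are above each gene and replicate 3 peaks below it, dark where shared and pale where not. *Lipg* and *Lpl* have pale marks alone, and the 4 distal shared regions of *Abcg1* crowd into 6.9 kb.

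The 2 libraries differed in a like way at most of the 27 shared regions of the 9 genes. Every one of the 27 had the higher fold enrichment in replicate 3, by 1.06 to 4.51 times with a median of 2.06, and over all shared regions the median was 2.47 with 97.1% higher in replicate 3. The order of the regions was partly kept between libraries, with a Spearman rho of 0.691 over the 27 regions and 0.843 over all shared regions. These regions share libraries, and regions of 1 gene share a locus, so the correlations are descriptions. All 32 replicate 2 peaks at the 9 genes (7 gene end, 25 distal) were shared. Of 89 replicate 3 peaks (15 gene end, 74 distal) 28 were shared, or 31.5%.

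**Figure D2:**
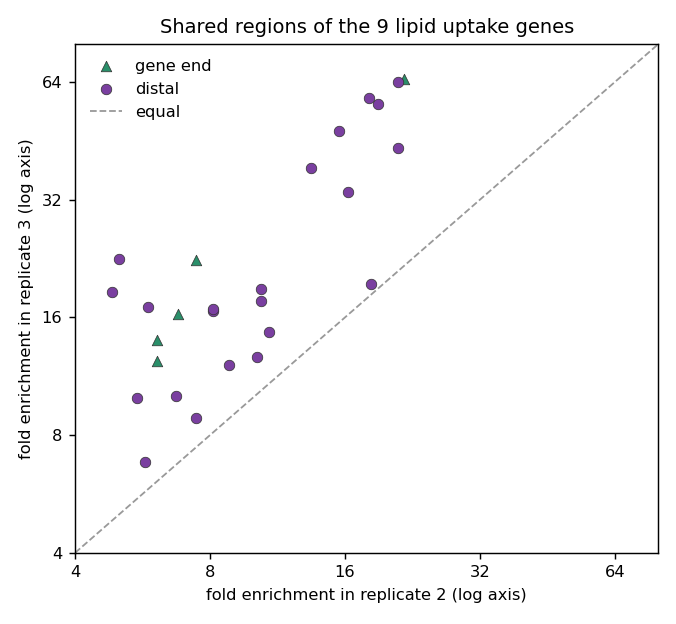
Fold enrichment of the 27 shared regions in replicate 2 (horizontal) and replicate 3 (vertical), both on log axes, with triangles for gene-end regions, circles for distal regions, and a dashed line of equality. Every region lies above the line, the nearest being the *Abca1* region at 18.3 and 19.5.

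The receptors differed in where their acetylation lay. *Scarb1* encodes SR-BI, the HDL receptor that takes up cholesteryl esters. Its gene-end region at chr5:125339886-125341292 covered the higher-coordinate end and had fold enrichments of 6.78 in replicate 2 and 16.3 in replicate 3. These were low among the 9644 genes with a shared gene-end region, at percentiles 8.07 and 7.25 of the strongest region per gene, where the medians were 16.3 and 47.2. The strongest region of *Scarb1* lay instead outside the opposite end, at chr5:125272306-125274206, 2.88 kb from it, with 19 and 56.3. A weaker one stood beside it at chr5:125271488-125271972, with 6.71 and 10.0. Both shared distal regions were thus in the flank and none was in the 64-kb body.

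Replicate 3 had 8 further *Scarb1* peaks that replicate 2 lacked. The strongest of them, with its summit 57.8 kb into the body from the lower-coordinate end, had a fold enrichment of 23.1. Of 2584 replicate 3 peaks within 10% of that value, 88% did have an overlapping replicate 2 peak, so its absence there was uncommon for its strength. It was the strongest unshared peak at any of the 9 genes.

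*Cd36* had 4 shared distal regions, all in its 107-kb body, which placed it at percentile 87.7 of 2180 genes of like length (equal counts sharing a mean rank). The strongest, at chr5:17876576-17877322, lay 11.6 kb inside the outer 5′ end and had fold enrichments of 21 and 43.3. A neighbor at chr5:17879885-17880292 had 8.13 and 16.6. The region over the RefSeq start site, at chr5:17835609-17836765, had 10.8 and 14.7, and the one beside it at chr5:17839585-17839979 had 10.4 and 17.6. In both libraries the highest signal at *Cd36* was therefore near the outer end and not at the listed start site.

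*Lrp1* was the weakest of the 7 genes with shared regions. Its gene-end region at chr10:127621305-127622274, at the 5′ end and outside the gene, had 6.1 in replicate 2 and 14 in replicate 3, percentiles 4.45 and 4.84 among genes with a gene-end region. The single shared distal region, at chr10:127590871-127591330 in the body, had 8.13 and 16.8. A replicate 3 peak at the 3′ end reached 13.3 with no replicate 2 peak. Of replicate 3 peaks of like strength 43.6% had one.

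The lipases had no shared region. *Lipg* encodes endothelial lipase, which cleaves HDL phospholipids, and *Lpl* encodes lipoprotein lipase, which cleaves triglycerides of chylomicrons and VLDL. Replicate 2 had no peak at either gene. Replicate 3 had 6 peaks at *Lipg*, 3 of them within 1 kb of a gene end, at fold enrichments of 3.34 to 8.79. The gene-end peak that covered the higher-coordinate end had 8.47, and 4 more stood from 0.55 kb inside to 3.34 kb outside that end. Only 14.8% of replicate 3 peaks of like strength had a replicate 2 peak, so most peaks of that strength had no replicate 2 call.

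At *Lpl* replicate 3 had 2 peaks, both distal, at 6.2 and 6.49, and 5.88% of peaks as strong as the second had a replicate 2 peak. Neither was near enough to a gene end to count there, the closer being 1.82 kb away. The nearest shared region to an end of *Lpl* was 45.8 kb off and that to an end of *Lipg* 38.9 kb off. At 0 shared regions, *Lipg* and *Lpl* were at percentiles 29.1 and 28.5 among genes of like length, in the large tie of genes with none. The lists therefore hold peaks at both lipases in 1 library, at strengths where the other library seldom had a call.

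*Gpihbp1*, whose product carries lipoprotein lipase to the vessel lumen, had shared regions on both sides of its 1.58-kb body. The stronger, at chr15:75592706-75593665, lay 2.97 kb outside the lower-coordinate end and had fold enrichments of 13.4 in replicate 2 and 38.5 in replicate 3. The gene-end region at chr15:75599064-75600553 began 0.851 kb outside the other end and had 7.46 and 22.5, although the replicate 2 peak inside the 1-kb window itself had 6.1. The 7.46 belonged to a replicate 2 peak 2.04 kb from that end. The replicate 3 summit lay 3.7 kb from the lower-coordinate end, which was also outside the gene and its 1-kb window. Replicate 3 had 3 more gene-end peaks, the highest at 8.25 within the body, none of them shared. With 1 shared distal region *Gpihbp1* was at percentile 84.4 of 1174 genes of like length.

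The exporters were among the genes with the most shared regions. *Abca1* had 6 over its 129-kb body and flanks. Its gene-end region at chr4:53158510-53160326, over the promoter printed above, had the highest fold enrichment of any region at the 9 genes, 21.7 and 65.3, percentiles 67.2 and 69.2 among genes with such a region. A second strong region lay 3.99 kb inside that end at chr4:53155261-53155997 and had 18.1 and 58.3. The region at chr4:53120236-53121052 had 18.3 in replicate 2, more than the last, but 19.5 in replicate 3, so the libraries ranked the pair in opposite order.

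The other 3 *Abca1* regions were weaker. They had 5.83 and 17 at chr4:53117090-53117479, 5.72 and 6.84 at chr4:53049349-53049720, and 5.49 and 9.92 at chr4:53021333-53021642, the one at the *Nipsnap3b* end. Replicate 3 added 14 unshared peaks, the most at any of the 9 genes, with fold enrichments of 3.34 to 15.3. The 5 shared distal regions put *Abca1* at percentile 90.1 of 1874 genes of like length.

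*Abcg1*, the exporter that passes cholesterol to HDL particles, had its distal regions in a cluster. All 4 began between 15.7 and 21.6 kb from the lower-coordinate end and together spanned 6.9 kb, whereas those of *Cd36* spanned 44.7 kb, those of *Pparg* 111 kb, and those of *Abca1* 135 kb. From the lower coordinate upward they were chr17:31073391-31074473 with 15.6 and 47.9, chr17:31075343-31075846 with 4.83 and 18.6, chr17:31077330-31077994 with 8.81 and 12.1, and chr17:31079266-31080287 with 16.3 and 33.5. The outer ones were the strongest in both libraries. Among 3232 genes of like length, 4 shared distal regions were at percentile 94.3, the highest of the 9.

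The gene-end region of *Abcg1* at chr17:31057494-31059136 was much weaker than that cluster, with 6.1 and 12.4, percentiles 4.45 and 3.46 among genes with a gene-end region. The nearest shared region beyond the search window of *Abcg1* was 159 kb from the gene. For the other 8 genes that distance was 13 to 45.8 kb.

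*Pparg* had 5 shared regions, all distal, and no shared gene-end region. The strongest, at chr6:115462480-115463461, lay 102 kb into the 130-kb gene and had fold enrichments of 21 and 63.8. That at chr6:115382666-115383264 was near the bottom of the replicate 2 list with 5.01 but had 22.6 in replicate 3. The ratio of 4.51 was the largest between libraries among the 27 regions. The region at chr6:115479965-115480678 had 10.4 and 18.9. Those at chr6:115437855-115438305 and chr6:115493442-115493741 had 10.2 and 12.7, and 7.46 and 8.85. *Pparg* was at percentile 90 of 1871 genes of like length.

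**Figure D3:**
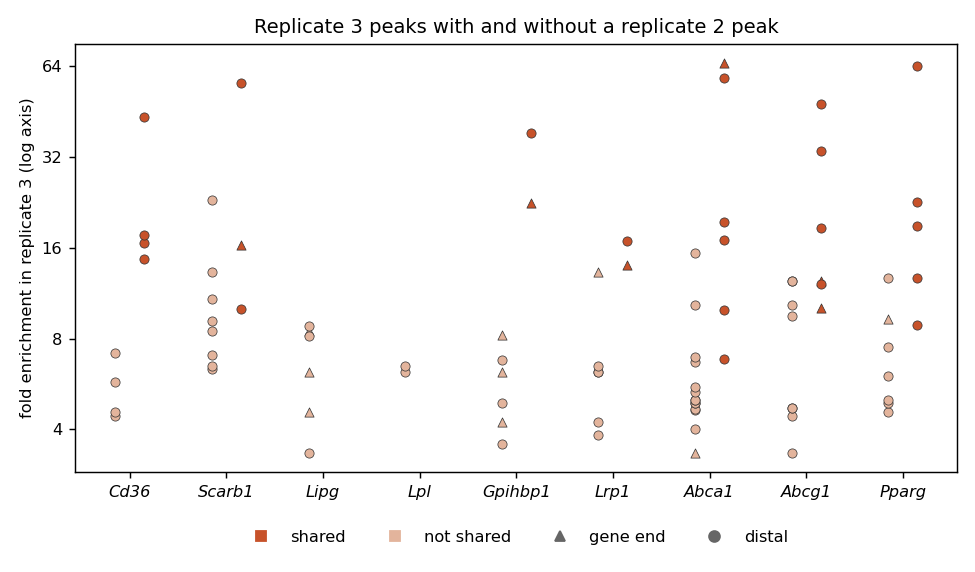
Fold enrichment in replicate 3 on a log axis for each peak at the 9 genes, dark where a replicate 2 peak overlapped it and pale where none did, with triangles for gene-end peaks and circles for distal peaks. Shared peaks run from 6.84 to 65.3 and the unshared from 3.34 to 23.1, with *Scarb1* holding the highest unshared peak.

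Unshared replicate 3 peaks at the 9 genes had a median fold enrichment of 6.19, against 17.3 for the shared ones. The ranges overlapped between 6.84 and 23.1. The strongest unshared peak of *Abca1* had 15.3, and 57% of peaks of like strength had a replicate 2 peak. That of *Lrp1*, at its 3′ end, had 13.3 (43.6%), that of *Pparg* 12.7 (39.9%), that of *Abcg1* 12.4 (38%), and that of *Cd36* 7.16 (7.95%).

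Distal regions were stronger than gene-end regions at most of the genes that had both kinds. In the 5 genes with both kinds, the strongest distal region exceeded the strongest gene-end region at 4, *Abca1* being the exception, in replicate 2 and again in replicate 3. Over the 5432 protein-coding genes with both kinds, this order was found in 41.5% of genes in replicate 2 and 40.0% in replicate 3. The ratio of distal to gene end in replicates 2 and 3 was 2.67 and 3.86 at *Abcg1*, 2.8 and 3.45 at *Scarb1*, 1.8 and 1.71 at *Gpihbp1*, 1.33 and 1.2 at *Lrp1*, and 0.844 and 0.894 at *Abca1*. At *Gpihbp1* the gene-end value of each library came from signal more than 1 kb outside the gene. The direction was the same in both libraries at each of the 5 genes.

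By strength, the 5 gene-end regions had a median fold enrichment of 6.78 in replicate 2 (range, 6.1 to 21.7) and 16.3 in replicate 3 (range, 12.4 to 65.3). The 22 distal regions had 10.3 (range, 4.83 to 21) and 18.1 (range, 6.84 to 63.8). The medians over all 24199 shared regions were 10.5 and 27. Among the 8599 genes with a shared distal region, the strongest distal region of *Pparg* was at percentiles 76.7 and 80.8, that of *Cd36* at 76.7 and 58.9, and that of *Lrp1* at 22.6 and 15. The other 4 genes lay between 50.1 and 76.5 in both libraries.

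**Figure D4:**
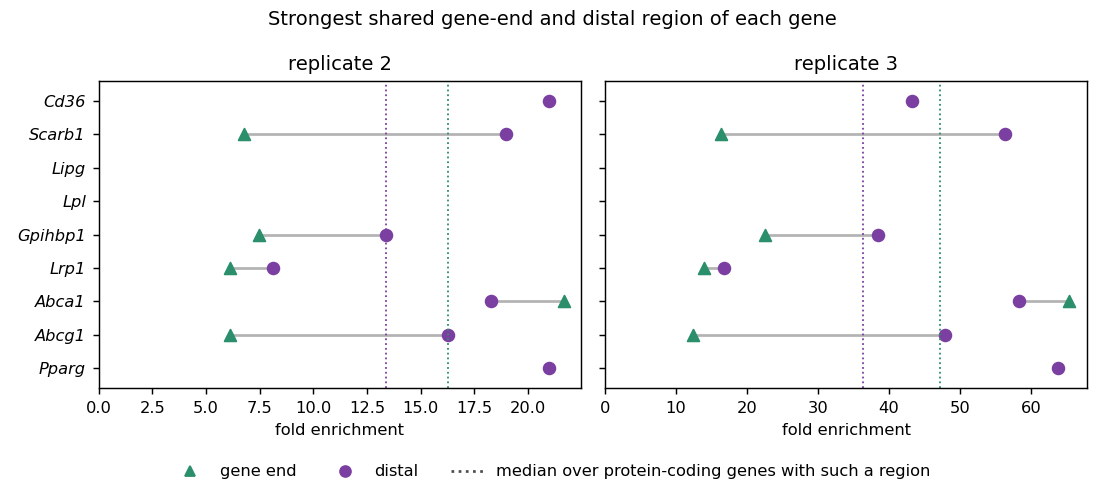
Fold enrichment of the strongest shared gene-end region (triangles) and the strongest shared distal region (circles) of each gene, in replicate 2 on the left and replicate 3 on the right, on linear axes of different length. Dotted lines are medians over the 9644 genes with a gene-end region (16.3 and 47.2) and the 8599 with a distal one (13.4 and 36.4), and only *Abca1* has its triangle to the right of the circle and of the gene-end median.

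The assignment by distance has cut points, and few regions lay near them. Just inside the 1-kb limit was the *Gpihbp1* region at 0.851 kb, and the next shared regions out were those of *Scarb1* at 2.88 kb and *Gpihbp1* at 2.97 kb. Just inside the 10-kb flank was the *Abca1* region at 9.15 kb, and the nearest beyond it was 13 kb from *Pparg*. Extending the flank to 50 kb raised the shared distal regions from 22 to 43 and gave *Lipg* 2 and *Lpl* 1.

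The other genes of the pathway were taken from lists of receptors, lipases, fatty acid handling, and cholesterol efflux. For listed genes, here and below, each fold enrichment is that of the highest gene-end peak in the library, shared or not. Of 12 lipoprotein receptors and adaptors, 9 had a shared gene-end region, or 75%, against 44.1% of all protein-coding genes. *Scarb2*, a lysosomal relative of CD36, had fold enrichments of 19.5 in replicate 2 and 46.1 in replicate 3, and *Olr1*, a receptor for oxidized LDL, had 17.5 and 26.1. *Vldlr* and *Sorl1* had no peak at all, and *Lrp2* had no gene-end peak. Gene-end regions of *Lsr* also lay at ends of *Fam187b* and *Usf2*.

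Of 12 lipases and their regulators, 6 had a shared gene-end region, or 50%, near the 44.1% of all protein-coding genes. The 6 included genes that serve the lipases of the vessel wall. *Lmf1*, needed for lipase folding, had 12.2 and 68.4, its partner *Sel1l* had 56.1 and 142, and *Angptl4*, an inhibitor of lipoprotein lipase, had 8.13 and 19.5. *Lipa*, the lysosomal acid lipase, had 17.8 and 73.6. *Lipc*, hepatic lipase, and the liver-secreted regulators *Angptl8*, *Apoc2*, and *Apoc3* had no gene-end peak. *Lipc* did have 3 shared distal regions and *Apoc2* had 2, whereas *Angptl8* and *Apoc3* had none. The region of *Apoa5* also lay at an end of *Zpr1*.

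Of 12 genes of fatty acid uptake and binding, 7 had a shared gene-end region, or 58.3%, against 44.1% of all protein-coding genes. The binding proteins *Fabp4* and *Fabp5*, which carry fatty acids in the cytosol of endothelial cells, had 27.3 and 43.2, and 14.9 and 40.1, whereas *Fabp1* of hepatocytes and *Fabp3* of muscle had no peak. The acyl-CoA synthetase *Acsl1* had 26.4 and 86.3. The region of its relative *Acsl3* also lay at an end of *Utp14b*. *Cav1*, of caveolae, had 5.42 and 6.49. The transporters *Slc27a1* and *Slc27a3* had none at a gene end, and *Slc27a4* had 7.46 and 35.

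Of 12 genes of cholesterol efflux and the LXR axis, 10 had a shared gene-end region, or 83.3%, against 44.1% of all protein-coding genes. *Mylip*, an LXR target, had 31.9 and 108, and *Npc1*, which moves cholesterol out of lysosomes, had 26.4 and 70.2. Others were weaker: *Soat1* had 12.9 and 34.5, *Nceh1* 12.9 and 36.3, *Apoe* 7.46 and 6.21, and *Ch25h* 5.24 and 5.21. Each of these was below 16.3 and 47.2, the medians of the strongest shared gene-end region per gene. *Nr1h2* and *Nr1h3*, which encode the LXRs, had 29.9 and 80, and 8.63 and 30.6, but both shared a region with an end of another gene, as did *Abca7*, *Apoe*, and *Npc2*. *Abcg4* had no gene-end peak. The share of the 9 members, 55.6%, lay inside the range of these lists. The lists were chosen with earlier results of these data known, so this comparison is a description.

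**Figure D5:**
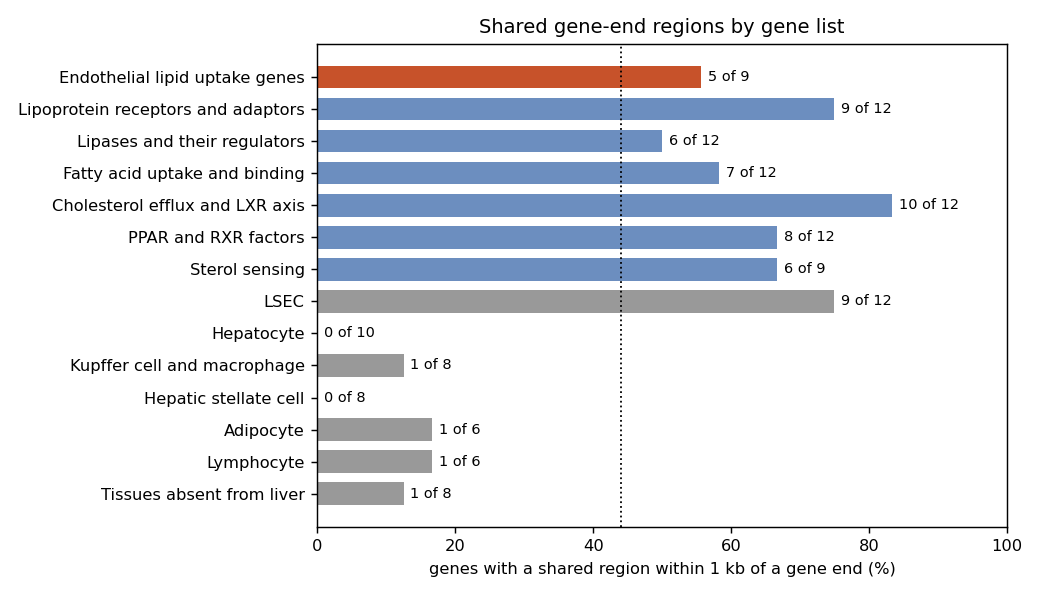
Share of genes with a shared gene-end region, in percent, for the 9 lipid uptake genes (red), the pathway lists (blue), and the cell type marker lists (gray), with the counts beside the bars and a dotted line at the 44.1% of all protein-coding genes. The pathway lists lie at 50% to 83.3%, the LSEC markers at 75%, and the lists of other cell types at 0% to 16.7%.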

How the data were processed

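H3K27ac ChIP-Seq of mouse LSECs (2 libraries, replicates 2 and 3) was analysed from the peak lists that the authors deposited, 1 list per library and not pooled. The deposited columns hold a fold enrichment (a ratio of signal to background), the −log10 of the p-value, the −log10 of the q-value, the summit, and a score, of which the score was not needed. The submitters' processing notes name cutadapt, BWA 0.7.17, Picard 1.67, MACS2 2.0.10, bedtools 2.27.1, and build mm10, without roles or settings. Whether the inputs served as controls in peak calling is not given in the sources used here, and the inputs were not analysed here. The labels describe sonication and a ligation kit, whereas the study's methods name a tagmentation-based ChIP-Seq. The deposited lists give no read counts, so depth is unknown and no interval was computed. A deeper or more enriched library yields more and wider peaks, which affects every count of shared regions.

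Peaks were joined into shared regions where libraries overlapped by at least 1 bp, and counted over 21887 protein-coding genes of the GRCm38 gene table, which pairs symbols with gene bodies. Percentiles give ties their mean rank. Genes of like length had a body within 1.5 times that of the gene, and peaks of like strength a fold enrichment within 10%. Motif shares come from the RefSeq promoter table. The scripts were tested on simulated data. No statistical test was run. The genes named are the 9 genes, 69 genes in 6 pathway lists, 7 marker lists, and genes whose ends lie at a region described, and these were chosen with earlier results of these data known. Some listed genes are counted but not reported here by name. The alternatives tried were a stricter q-value (1e-05), equal numbers of strongest peaks, a reciprocal overlap of 50%, a 2.5-kb end window, RefSeq start sites, other flanks, other genes' ends left out, ranking by p-value, and each library alone. Python 3.11.15, numpy 2.4.6, pandas 2.3.3, and matplotlib 3.10.9 were used.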

Additional observations from a re-analysis of the deposited data

How the results depend on the processing

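The number of genes with a shared gene-end region, 5 of 9, stayed 5 at a stricter q-value (1e-05), with equal numbers of strongest peaks, and with a 2.5-kb window. It was 0 with a reciprocal overlap of 50% and 3 when only RefSeq start sites were used, over the 4 genes with an entry. The share of all genes under the reciprocal overlap is not given here, so the 0 cannot be called particular to the 9. With 1 library alone the number was 5 to 7. The number with a shared distal region, 7 of 9, ranged from 5 (reciprocal overlap, or gene bodies alone) to 9 (50-kb flank), and was 7 to 9 with 1 library alone. The 22 shared distal regions were 16 to 22 under the other settings, 43 with a 50-kb flank, and 25 to 74 with 1 library alone, the 74 being all distal peaks of replicate 3. Of 63 values of single genes under the alternatives, libraries left out aside, 49 stayed within 1.5 times, 7 were higher, and 7 lower. Ranked by −log10 p in place of fold enrichment, the median percentile of the 27 shared regions was 42.8 against 43.5 in replicate 2 and 72 against 71.8 in replicate 3. No paired analysis was possible because replicates 2 and 3 make up 1 condition and their inputs were left out.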

Other observations

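Of 12 PPAR and RXR factors and cofactors, 8 had a shared gene-end region, or 66.7%, against 44.1% of all protein-coding genes, and *Ppara*, *Rxrg*, *Ppargc1a*, and *Meox2* had none. *Rxrb* and *Ncor1* each shared a gene-end region with an end of another gene, *Slc39a7* and *Pigl*. *Ppard*, the PPAR found in most tissues, had fold enrichments of 17.7 in replicate 2 and 73.3 in replicate 3 and 5 shared distal regions, and *Rxra*, the shared partner of PPARs and LXRs, had 8.13 and 19.9. *Ppara*, the PPAR of tissues that oxidize fatty acids, and the coactivator *Ppargc1a* had a gene-end peak in replicate 3 alone, at 9.15 and 4.56, and *Rxrg* had no gene-end peak in either library. The endothelial factors *Tcf15* and *Meox2*, known as partners in fatty acid uptake by heart endothelium, differed: *Tcf15* had 6.76 and 24.4, and *Meox2* had no peak in its body or flanks in either library.

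Of 9 genes of sterol sensing and synthesis, 6 had a shared gene-end region, or 66.7%, against the same 44.1%. Their strengths ranged widely, and *Scap*, the sterol sensor that escorts SREBPs, had fold enrichments of 10.2 in replicate 2 and 21.3 in replicate 3. These were below 16.3 and 47.2, the medians of the strongest shared gene-end region per gene, which can join several peaks. *Insig1*, which holds the sterol sensor in the endoplasmic reticulum, had 40 and 152, *Hmgcs1*, of the cholesterol synthesis pathway, had 33.7 and 154, and *Srebf2*, the main activator of cholesterol synthesis, had 29.1 and 99.6. *Srebf1* had a gene-end peak in replicate 3 alone, at 20.3. *Insig2* had none. Fold enrichments recurred exactly between peaks: the 32 replicate 2 peaks at the 9 lipid uptake genes held 25 different values and the 89 of replicate 3 held 73.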
